A study of Mus musculus with 4 samples.

Results

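The aryl hydrocarbon receptor (AHR) pathway was followed through 6 genes in retinas grown from mouse stem cells: the receptor gene Ahr, its partner Arnt, the repressors Ahrr and Tiparp, and the cytochrome P450 genes Cyp1a1 and Cyp1b1. Every array probe carrying one of these names was taken, which gave 10 of 55681 probes and 6 of 22540 genes with a gene symbol. The retinal organoids (3D-retinas) came from a mouse induced pluripotent stem cell line with a green fluorescent reporter under the rod gene Nrl. Treatment began on differentiation day 23, and RNA was taken on day 25. The groups were 5 µM 4-hydroxytamoxifen (4-OHT, a form of tamoxifen made in the body that binds estrogen receptors), the same 4-OHT with 400 µM vitamin E (a lipid-soluble antioxidant), the same 4-OHT with 200 nM lutein (a carotenoid of the macula), and ethanol vehicle without 4-OHT. Each group was 1 array hybridised with RNA pooled from 24 3D-retinas, so no difference has a replicate check and no p-value is given.

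AHR is a ligand-activated transcription factor of the bHLH-PAS family. Without ligand it is held in the cytosol by HSP90 and co-chaperones. With ligand it enters the nucleus, pairs with ARNT and binds the AHR response element, whose core letters are GCGTG. Cyp1a1 is the classical gene induced in this way, and Cyp1b1, Ahrr and Tiparp are induced in many tissues. AHRR competes with AHR for ARNT, and TIPARP attaches ADP-ribose to AHR, so both act as feedback repressors. 4-OHT has been reported as an AHR ligand in other cultured cells.

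The sequence before the start site is shown for the 4 AHR target genes, because the response element defines the pathway and their signals ran from undetected to above 2-fold. Each is the 250 bases upstream of the start in RefSeq on the GRCm38.p6 build, written along the gene's own strand, with the GCGTG core or its reverse complement CACGC in capitals. The Ahrr window lies at chr13:74292332-74292581 on the minus strand, Cyp1b1 at chr17:79715062-79715311 on the minus strand, Cyp1a1 at chr9:57697363-57697612 on the plus strand and Tiparp at chr3:65528197-65528446 on the plus strand.
Ahrr: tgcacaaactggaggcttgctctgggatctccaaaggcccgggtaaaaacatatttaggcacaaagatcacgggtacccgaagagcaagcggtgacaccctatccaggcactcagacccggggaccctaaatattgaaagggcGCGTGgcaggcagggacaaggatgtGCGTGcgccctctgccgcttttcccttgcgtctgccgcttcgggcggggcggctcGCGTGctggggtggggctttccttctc
Cyp1b1: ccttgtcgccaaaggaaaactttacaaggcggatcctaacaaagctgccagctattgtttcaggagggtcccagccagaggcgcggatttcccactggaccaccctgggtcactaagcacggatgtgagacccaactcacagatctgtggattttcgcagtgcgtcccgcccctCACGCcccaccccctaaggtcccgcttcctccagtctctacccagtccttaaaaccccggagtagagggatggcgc
Cyp1a1: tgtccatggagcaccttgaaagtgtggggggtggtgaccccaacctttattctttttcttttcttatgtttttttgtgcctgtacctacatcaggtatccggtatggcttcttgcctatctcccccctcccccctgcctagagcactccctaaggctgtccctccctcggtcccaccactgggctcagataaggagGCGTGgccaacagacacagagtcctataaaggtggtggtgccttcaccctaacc
Tiparp: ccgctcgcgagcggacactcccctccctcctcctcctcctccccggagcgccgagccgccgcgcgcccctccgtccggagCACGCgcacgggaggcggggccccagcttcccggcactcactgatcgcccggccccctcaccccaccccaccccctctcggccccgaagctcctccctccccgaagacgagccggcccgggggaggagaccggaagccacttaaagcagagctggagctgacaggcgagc

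The Ahrr window held 3 cores, all on the gene's strand, at positions -107, -82 and -27 relative to the start site. The windows of Cyp1b1, Cyp1a1 and Tiparp held 1 core each, and that of Arnt, not printed, also 1. None of these cores overlapped another. Of 32851 RefSeq windows of the same length 28.2% held at least 1 core on either strand and 2.77% held 3 or more. The longer form TNGCGTG (either strand; each copy contains the core) was in 4.1% of windows and, of these 5 genes, was found in Ahrr, in 1 copy. A match is a description of the letters and not evidence that AHR binds there. Of the 6 genes 5 had a RefSeq window, and Ahr had none.

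Signals are given as log2 levels relative to the 75th percentile of the array's gene spots, so that 0 is that percentile. Levels of different probes are not comparable. The share of gene spots well above background ran from 51.3% to 54.5%. The error attached below, called the spot SD, is the SD of log2 differences between repeated spots of that brightness, from the 260 to 266 probes per array that were printed 10 times and well above background. It was 0.0785 to 0.0845 at levels of 0 and above, 0.150 to 0.160 between -2 and 0 and 0.339 to 0.383 below -2. It leaves out the variation between cultures. The range was set by the brighter array of a comparison. The error is therefore too small where the other array lay in a lower range, as for Ahrr against vehicle and Cyp1b1 with vitamin E. Each of the 10 probes was a single spot. A probe that was not well above background is called dim. Against it a fold is a lower bound if its signal lay under the array's lowest well-above-background signal, and otherwise is not. Retinal identity was clear on every array: all 12 rod markers and all 8 further markers of retinal neurons, Crx and Otx2 among them, were well above background. The rod markers summed to 906 with 4-OHT, 1655 with added vitamin E and 1218 with added lutein, against 2172 in vehicle (units of the 75th percentile). In pooled RNA, fewer cells of a type and less RNA per cell cannot be told apart.

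Counted over the 6 genes, few differences reached 2-fold in any comparison. Cyp1a1 was not measured, and each count is over the other 5. For 4-OHT against vehicle Ahrr made 1 gene past 2-fold higher, with 0 lower, where 6.1% of 15002 genes with a symbol were higher and 3.46% lower (4.84% and 5.53% when the arrays were scaled to their spike-in control RNA instead). The median of the 5 was -0.016, against -0.12 for all genes. For vitamin E against 4-OHT 0 were 2-fold higher and 0 lower, where 1.47% of all genes were higher and 6.26% lower (3.59% and 4.48% on spike-in scaling), with medians of 0.11 and 0.16. For lutein against 4-OHT 0 were higher and 0 lower, where 0.91% were higher and 2.3% lower (1.18% and 1.72% on spike-in scaling), with medians of 0.15 and 0.12. These shares include bounds. Among genes detected on both arrays, as the 5 were, 5.1% were higher and 2.99% lower for 4-OHT against vehicle. The shares were 1.1% and 4.39% for vitamin E and 0.284% and 1.31% for lutein, each against 4-OHT.

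Against vehicle, the supplemented arrays each had 1 of the 5 genes past 2-fold. With vitamin E that gene was Cyp1b1, while over all genes 1.11% were that far above and 1.62% that far below, and the median of the 5 was 0.11 against 0.0038 for all genes. With lutein it was Ahrr (not when its probes were averaged), where 3.42% of genes were higher and 2.09% lower, with medians of 0.093 and -0.025. On each array 0 of the 5 were 2-fold lower. Among genes detected on both arrays 0.742% were higher and 0.699% lower with vitamin E, and 2.55% and 1.13% with lutein. The comparisons with vehicle share the vehicle array, and those with 4-OHT share the 4-OHT array, so they are not independent of each other.

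The receptor gene itself was lower in all 3 groups given 4-OHT. By its bright probe, Ahr had a level of 0.51 with 4-OHT, 0.60 with 4-OHT and vitamin E and 0.81 with 4-OHT and lutein, against 1.34 in vehicle. The 3 drug-treated arrays therefore lay below the vehicle array, with the lowest value on 4-OHT alone. The log2 difference from vehicle was -0.83 ± 0.085 (spot SD, 1 array each) for 4-OHT, a 1.78-fold lower signal. It was -0.74 with added vitamin E and -0.53 with added lutein, 1.67-fold and 1.45-fold lower. None reached 2-fold, and 6.11% of measured genes were at least as far below vehicle with 4-OHT.

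Neither supplement brought Ahr near its vehicle level. Against 4-OHT alone the log2 difference was 0.089 with vitamin E, about the spot SD of 0.081, and 0.30 with lutein. All genes with a symbol had a median of 0.16 and 0.12 in these comparisons, so Ahr was -0.069 and 0.18 from the typical gene. The rod marker sums above were also lowest with 4-OHT and highest in vehicle, and their part in the Ahr difference was not tested.

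A second Ahr probe, 5799 bases away on chromosome 12, was close to background and gave a different picture. Its level was -3.89 with 4-OHT, -4.76 with vitamin E and -4.43 with lutein, against -4.03 in vehicle, and it was not well above background with either supplement. Its log2 difference for 4-OHT against vehicle was 0.14 ± 0.38, against -0.83 for the bright probe. From its dim signal, the log2 difference from vehicle was -0.73 ± 0.38 with vitamin E and -0.40 ± 0.36 with lutein. Both dim signals lay above their array's lowest well-above-background signal, so these differences are not bounds. The bright probe lies at chr12:36182724-36182783 and the dim one at chr12:36188523-36188582 of the mm9 build, both on the minus strand. Whether either lies in a UTR was not analysed here.

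**Figure D1:**
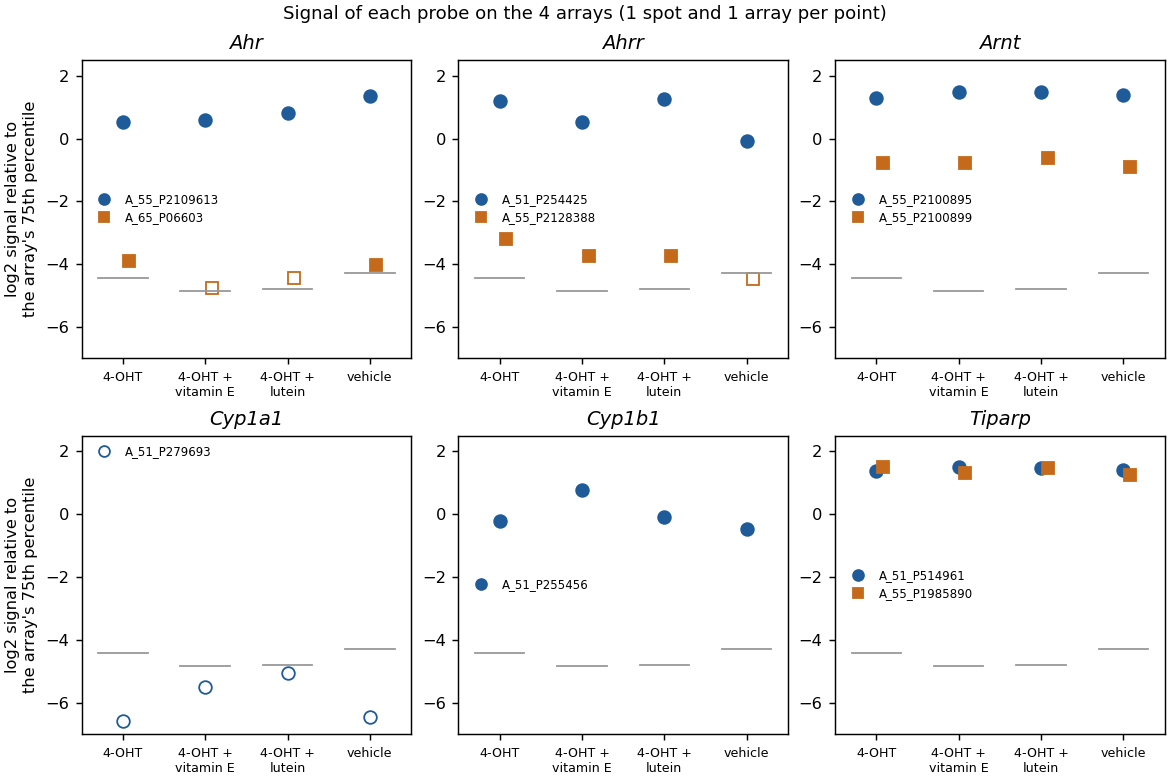
Log2 signal of each probe of the 6 genes (y axis, relative to the array's 75th percentile) on the 4 arrays (x axis). Filled points are well above background and open points are not, and grey lines mark each array's lowest well-above-background signal. Bright-probe Ahr lies between 0.51 and 0.81 on the 3 drug-treated arrays and at 1.34 in vehicle, Ahrr lies above its vehicle level on all 3, Cyp1b1 is highest with vitamin E, and Cyp1a1 is open on all 4.

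The partner gene Arnt, the obligate dimer partner of AHR and of the hypoxia factors, stayed within a narrow band. Its bright probe (chr3:95301081-95301140, mm9, plus strand) had levels of 1.30 with 4-OHT, 1.49 with vitamin E and 1.47 with lutein, against 1.38 in vehicle. The whole range over the 4 arrays was 0.19 on the log2 scale, and neighbouring levels differed by 0.093 or less. The log2 difference for 4-OHT against vehicle was -0.077, within the spot SD of 0.085. The second probe, 1647 bases away, gave 0.13 for the same comparison.

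The HSP90 genes and the co-chaperone gene Ptges3, whose products hold AHR in the cytosol, were all measured. Of these 3 genes 0 differed by 2-fold in any of the 5 comparisons. Over all genes 0.91% to 6.1% were 2-fold higher and 1.62% to 6.26% lower, depending on the comparison. Hsp90ab1, a constitutive HSP90 gene, had levels of 7.78 with 4-OHT, 7.56 with vitamin E and 7.67 with lutein, against 7.31 in vehicle. With 4-OHT it was 1.38-fold above vehicle, whereas Hsp90aa1, the inducible HSP90 gene, and Ptges3 had log2 differences of -0.13 and -0.25.

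Among 16 other genes of the bHLH-PAS family and its coactivators 14 were measured for 4-OHT against vehicle. Of the 13 detected on both arrays 1 was past 2-fold higher and 0 lower. Over all genes so detected 5.1% were higher and 2.99% lower. The median of the 13 was 0.053 (log2), against -0.14 over all genes so detected. Npas4, an activity-dependent factor of neurons, was 63.4-fold higher. Npas1, a factor of inhibitory neurons, was dim in vehicle and higher with 4-OHT by at least 2.2-fold. Hif1a, the oxygen-regulated partner of ARNT, was 1.78-fold lower, with levels of 3.12 with 4-OHT, 3.77 with vitamin E and 3.62 with lutein, against 3.95 in vehicle. Hif3a, a related hypoxia factor, had a log2 difference of 0.88. Arnt2, the neuronal relative of Arnt, differed by -0.28.

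Ahrr was the gene of the 6 that differed most from vehicle under 4-OHT. It had levels of 1.19 with 4-OHT, 0.53 with vitamin E and 1.25 with lutein, against -0.077 in vehicle (probe at chr13:74348705-74348765, mm9, minus strand). All 3 drug-treated arrays lay above vehicle, the vitamin E array in the middle. It was 2.40-fold above vehicle with 4-OHT (log2 difference 1.26 ± 0.085), and with 4-OHT and lutein 2.51-fold higher (1.33 ± 0.081). With both its probes averaged, the lutein difference was 0.93, short of 2-fold. With 4-OHT and vitamin E it was 1.52-fold higher than in vehicle, short of 2-fold.

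Against 4-OHT alone, Ahrr was 1.58-fold lower with vitamin E (log2 difference -0.66 ± 0.081), and 10.1% of genes were at least as far below. With lutein it differed from 4-OHT alone by 0.061, within the spot SD of 0.079. The doses of the 2 supplements differ, so these values stand side by side without a comparison. The second Ahrr probe, 1980 bases away and dim in vehicle, was higher than there by at least 2.13-fold with 4-OHT, at least 1.47-fold with vitamin E and at least 1.45-fold with lutein. It disagreed with the first probe over lutein against 4-OHT alone, at -0.55 ± 0.34.

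Markers of other cell types also differed between these arrays. Of 9 pigment epithelium markers 5 or 6 were well above background on each array, and Rpe65, Best1 and Lrat were dim on all. They summed to 11.8 with 4-OHT, 9.01 with vitamin E and 10.8 with lutein, against 3.17 in vehicle, and the sum followed 1 gene, Dct, an enzyme of melanin synthesis with a log2 difference of 2.43 for 4-OHT against vehicle. The median of the 5 markers measured in that comparison was -0.12, as was that of all genes. Of 6 microglia markers Csf1r and Itgam were well above background, while Aif1, Cx3cr1, Ptprc and P2ry12 were dim on all arrays. The sum was 30.6 with 4-OHT, 12.4 with vitamin E and 16.4 with lutein, against 12.3 in vehicle, and it followed Itgam, an integrin gene, at 1.49 for 4-OHT against vehicle, whereas Csf1r was at 0.099. Of 7 ciliary margin markers 4 were detected on every array (Otx1, Wls and Gja1 on none), with sums of 4.45 with 4-OHT, 4.37 with vitamin E and 5.22 with lutein, against 3.05 in vehicle. A sum weights bright probes most. The part of these markers in the Ahrr difference was not tested.

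Tiparp, the other repressor, did not follow Ahrr. Its brighter probe (chr3:65358749-65358808, mm9, plus strand) had levels of 1.39 with 4-OHT, 1.5 with vitamin E and 1.47 with lutein, against 1.40 in vehicle. The second, 1039 bases away, had 1.51, 1.31 and 1.45 on the same arrays, against 1.25 in vehicle. For 4-OHT against vehicle the log2 differences were -0.016 and 0.26, and for vitamin E against 4-OHT 0.11 and -0.20. The 2 probes thus disagreed in sign in both comparisons, and every difference was at most 0.26.

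The wider family of poly(ADP-ribose) polymerases, to which TIPARP belongs, was mixed for 4-OHT against vehicle. Of 13 genes 12 were measured, 1 of them past 2-fold higher and 0 past 2-fold lower. Over all genes 6.1% were higher and 3.46% lower. The median of the 12 was -0.015, against -0.12 for all genes. Zc3hav1, an antiviral RNA-binding member without catalytic activity, was 2.06-fold higher and Parp4 1.77-fold higher. Parp16, an enzyme of the endoplasmic reticulum, was 1.59-fold lower, and Parp12, not well above background with 4-OHT, at least 1.61-fold lower. With vitamin E, Parp3 was not well above background and at least 2.35-fold lower than with 4-OHT alone.

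Cyp1a1 was not well above background on any array. Its single probe (chr9:57551535-57551594, mm9, plus strand) gave intensities of 5.22 with 4-OHT, 12 with vitamin E and 16.7 with lutein, against 6.43 in vehicle. Each of these log2 levels (-6.57, -5.50 and -5.04, against -6.46 in vehicle) lay under the detection limit of its array (its lowest well-above-background signal), which was -4.43, -4.85 and -4.80, against -4.28 in vehicle. No fold is given, since differences below this limit were not detectable here.

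Cyp1b1 was highest on the vitamin E array. This enzyme hydroxylates estrogens and metabolises retinoids and polycyclic hydrocarbons, and loss of the human gene causes congenital glaucoma. Its probe (chr17:80106547-80106606, mm9, minus strand) had levels of -0.23 with 4-OHT, 0.76 with vitamin E and -0.075 with lutein, against -0.48 in vehicle. With vitamin E it was 2.36-fold higher than in vehicle (log2 difference 1.24 ± 0.083), and 0.65% of genes were at least as far above. Against 4-OHT alone it was 1.98-fold higher with vitamin E (0.98 ± 0.081, with 1.59% of genes at least as far above), just short of 2-fold. On spike-in scaling the log2 difference was 1.20, past 2-fold.

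The other arrays differed less in Cyp1b1. With 4-OHT alone it was 0.25 ± 0.16 above vehicle on the log2 scale and with lutein 0.40 ± 0.16. Lutein and 4-OHT alone differed by 0.15, within the spot SD of 0.16. Cyp1b1 has 1 probe with 1 spot, so no second measurement was at hand. Of 8 mesenchyme and pericyte markers 3 were well above background with vitamin E (Col1a1, Dcn and Acta2, summing to 0.22), against 0 with 4-OHT alone, and in lutein and vehicle 1 each (Acta2, at 0.063 and 0.071). The other 5, among them Pdgfrb and Rgs5, were dim throughout. The part of these markers in the Cyp1b1 difference was not tested.

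**Figure D2:**
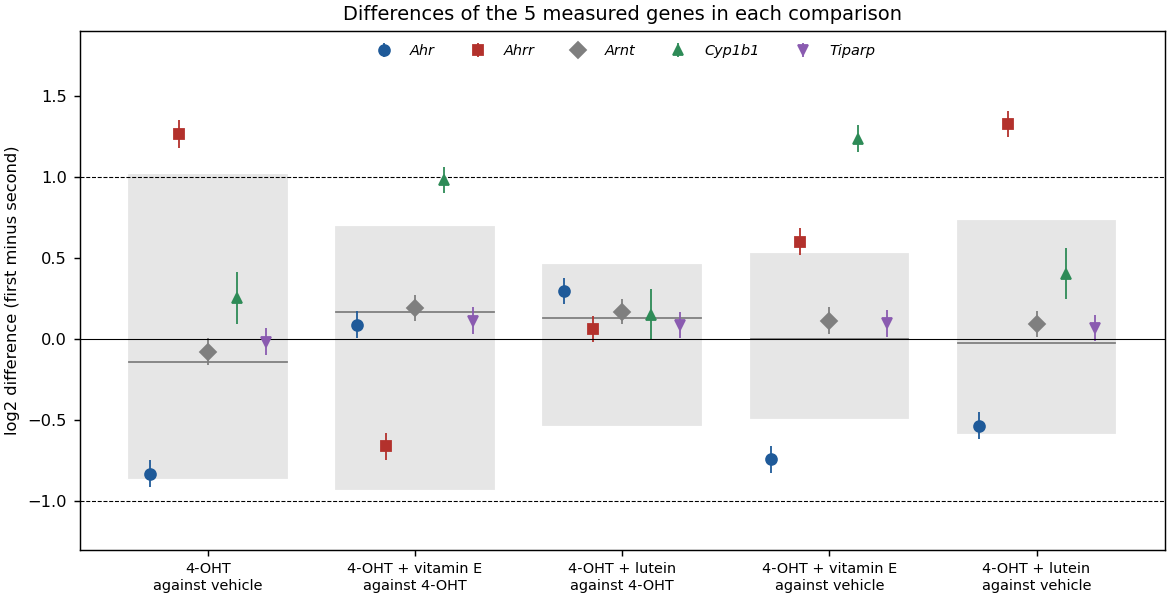
Log2 difference (y axis, first group minus second) of the 5 genes well above background, in the 5 comparisons (x axis). Bars are the spot SD at that brightness, dashed lines mark 2-fold, and grey boxes span the 5th to 95th percentile of genes with a symbol detected on both arrays, with their median as a line. Ahrr lies above 1 for 4-OHT and for 4-OHT with lutein against vehicle, and Cyp1b1 for 4-OHT with vitamin E against vehicle.

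The rest of the classical AHR gene battery was mostly dim on these arrays. Of 5 battery genes besides the members that the array carried, Cyp1a2, Ugt1a6a, Ugt1a6b and the quinone reductase gene Nqo1 were dim on each array. Aldh3a1, an aldehyde dehydrogenase, had levels of 1.51 with 4-OHT, 1.64 with vitamin E and 1.61 with lutein, against 1.72 in vehicle. It therefore stayed within 1.16-fold of vehicle. Gsta1 was not analysed here.

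Among genes that support P450 enzymes or act on their products, 3 of 4 lay below vehicle with 4-OHT. Past 2-fold lower was 1 of the 4, where 3.46% of all genes were (5.53% on spike-in scaling). The median log2 difference of the 4 was -0.38, against -0.12 for all genes, so the typical gene also lay below vehicle. Ephx1, the microsomal epoxide hydrolase, had levels of -0.94 with 4-OHT, -0.66 with vitamin E and -0.68 with lutein, against 0.30 in vehicle. All 3 drug-treated arrays thus lay below vehicle, and with 4-OHT the gene was 2.37-fold lower. Por, the electron donor of P450 enzymes, was 1.32-fold and Cyb5a, a cytochrome that assists them, 1.28-fold lower. Cyb5r3, a reductase of cytochrome b5, had a log2 difference of 0.082.

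A set of 11 further genes reported as AHR targets in other tissues included genes well past 2-fold. For 4-OHT against vehicle 4 were well above background on both arrays, of which 2 were past 2-fold higher and 0 past 2-fold lower. Their median was 0.65, against -0.14 over all genes detected on both, of which 5.1% were past 2-fold higher and 2.99% lower. A further 4 entered through the 4-OHT array alone, so their differences are bounds and are not counted here. Slc7a5, an amino acid transporter that is also induced in the integrated stress response, had levels of 2.71 with 4-OHT, 0.73 with vitamin E and 2.60 with lutein, against 0.49 in vehicle. Against vehicle, 4-OHT gave a 4.65-fold higher signal. Socs2, an inhibitor of cytokine signalling, was 3.02-fold higher.

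Areg, Serpinb2 and Ptgs2 were not well above background in vehicle or with vitamin E. The growth factor Areg was at least 7.34-fold, the protease inhibitor Serpinb2 at least 3.70-fold and the prostaglandin synthase Ptgs2 at least 3.38-fold higher with 4-OHT than in vehicle. With vitamin E they were at least 10.9-fold, 5.47-fold and 5.01-fold lower than with 4-OHT alone, and Slc7a5 and Socs2 were 3.95-fold and 2.85-fold lower. With lutein 0 of the 7 genes detected on both arrays differed by 2-fold from 4-OHT alone. Of all genes so detected 0.284% were 2-fold higher and 1.31% lower. Nfe2l2, the gene of NRF2, was 1.46-fold lower with 4-OHT than in vehicle, and Pla2g4a, a phospholipase, 1.23-fold lower. Fgf21, a secreted metabolic factor, was well above background with 4-OHT alone, and its bound was 1.02-fold. Il6, Ereg and Cd36 were dim throughout.

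Enzymes of tryptophan metabolism, some of which make AHR ligands, were largely dim. Of 11 genes 7 were dim throughout, among them Ido1, Ido2 and Tdo2, which open the kynurenine route, and Kynu, Aadat, Tph2 and Ddc. Of all genes detected on both the 4-OHT and the vehicle array 5.1% were 2-fold higher and 2.99% lower. None of the 4 measured genes, each detected on both, differed by 2-fold between 4-OHT and vehicle. Their log2 differences were 0.68 for Afmid, which makes kynurenine, -0.47 for Kmo, which hydroxylates it, -0.35 for the serotonin enzyme Tph1 and 0.27 for the amino acid oxidase gene Il4i1. Kmo was not well above background with either supplement. Its dim signal was 2.59-fold below vehicle with vitamin E and 2.39-fold below with lutein, and these folds are not bounds.

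**Figure D3:**
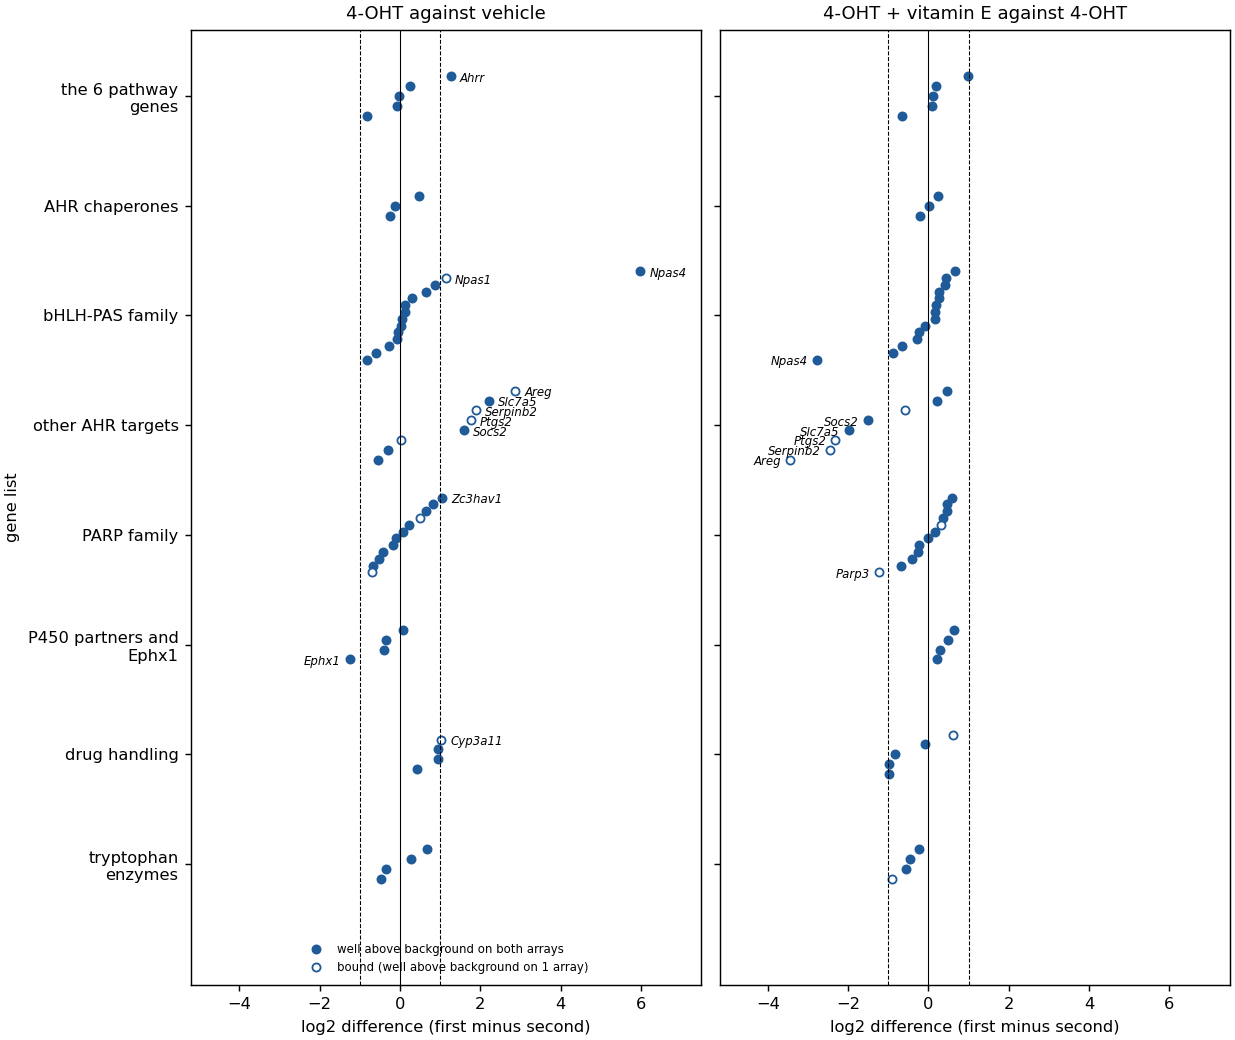
Log2 differences (x axis) of the 6 pathway genes and of 7 related gene lists (y axis), for 4-OHT against vehicle on the left and 4-OHT with vitamin E against 4-OHT on the right. Each point is a gene, open where just 1 of the arrays had it well above background, and genes past 2-fold (dashed lines) are named. On the left Ahrr is the 1 pathway gene past 2-fold. Of the 4 other AHR targets well above background on both arrays 2 lie past 2-fold higher, where 5.1% of all genes so detected did. Open points are not counted.

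**Figure D4:**
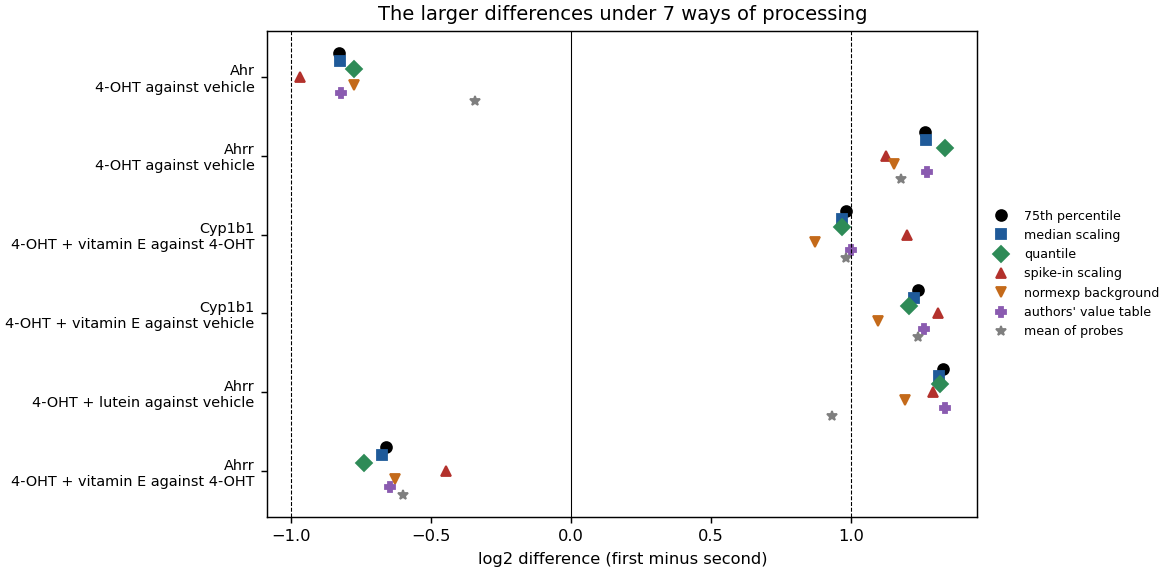
Log2 differences (x axis) of 6 of the larger gene differences (y axis) under 7 ways of processing, 1 symbol for each, with dashed lines at 2-fold. Ahr for vitamin E against vehicle, at -0.74, is not shown. Ahrr for 4-OHT against vehicle and Cyp1b1 for vitamin E against vehicle stay above 1 under all 7, whereas Cyp1b1 for vitamin E against 4-OHT lies between 0.87 and 1.20 and Ahrr for lutein against vehicle comes to 0.93 with the mean of probes.

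Genes with the most similar pattern were sought among 13766 other genes with a symbol that were well above background on all 4 arrays. Likeness was the Euclidean distance over the 3 log2 differences from vehicle, so it rests on 4 arrays that share 1 vehicle. The genes nearest to Ahrr were Ctsc, a lysosomal protease (distance 0.061), Baz1a, a chromatin remodelling subunit (0.14), and Spsb2 (0.14), and 13 genes lay within 0.25. For Ahr they were Lrif1, Arhgef33 and the secreted lipocalin gene Lcn2 (0.081 to 0.12), with 59 within 0.25. For Cyp1b1 they were the collagen gene Col9a2 (0.16), Tmem92 (0.22) and Mtap7d3 (0.23), with 4 within 0.25. The patterns of Arnt and Tiparp were common, with 2769 and 2791 genes within 0.25. The nearest were Gnas, Ube2j2 and Supt6 for Arnt and Lrp5, Itga3 and Dpp8 for Tiparp.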

How the data were processed

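RNA from 4 pools of 3D-retinas was labelled with Cy3 and hybridised to 1-colour Agilent mouse arrays on 1 slide. Per the file headers and the submitters' processing notes, the deposited intensity of each spot came from Agilent Feature Extraction 10.7.3.1, with background subtraction and spatial and multiplicative detrending, surrogates for the dimmest spots and without between-array normalization. Values of the lutein array carry 3 significant digits and 57 of its gene names are altered, so names were taken from the vehicle array. The authors' deposited value table holds linear signal divided by 1 number per array (434.1 for 4-OHT, 468.9 for vitamin E, 479.2 for lutein and 494.2 for vehicle, found by comparison with the scanner intensity). It is neither logged nor centred, its column medians were 0.0949, 0.0736, 0.0847 and 0.0794 in that order, and it served as an alternative.

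Intensities were log2-transformed and the array's 75th percentile over gene spots subtracted. Control spots and outlier spots (137 to 164 per array) were left out, and no spot was saturated. The probe with the highest mean stood for a gene. A gene was measured in a comparison if well above background on at least 1 array. A dim spot took the array's lowest well-above-background signal, so that such a difference is a bound. Where its own signal was higher, that was used, and the difference is not a bound. The limit of 2-fold is a fixed size and not a test. Of 55681 probes 30540 had a symbol in RefSeq (GRCm38.p6, names only). Precision is limited by 1 array per group.

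The members and lists were chosen with earlier results of these data known. Named were all probes of the 6 genes, up to 4 genes of each list with the largest difference for 4-OHT against vehicle, all chaperone, battery and other target genes (some listed genes are not reported here), and the 3 nearest genes in pattern. Supplement values of listed genes, and Arnt2, Kmo and Parp3 for theirs, were picked after the values were seen. Alternatives were median, quantile and spike-in scaling (7 of 10 spike-in probes), normexp background with offset 50 (limma 3.58.1, R 4.3.3), the deposited table, averaging a gene's probes, requiring detection on both arrays, leaving out the filter, and limits of 1.5-fold and 4-fold. Other steps used Python 3.11.15, NumPy 2.4.6, pandas 2.3.3 and matplotlib 3.10.9 and were tested on simulated data.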

Additional observations from a re-analysis of the deposited data

How the results depend on the processing

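No paired analysis was possible because there was 1 array a group. Of 100 recomputed counts of pathway genes past 2-fold 87 stayed within 1.5 times the reported count and 13 moved. Of 200 recomputed log2 differences 190 moved by less than the spot SD over all brightnesses and 10 by more, and 0 of those past 2-fold changed sign. Many of the 190 could not move. The measured genes were well above background on every array, so requiring detection on both arrays or leaving out the filter left their differences unchanged. Averaging probes could not move Cyp1b1, which has 1 probe, and the deposited table holds the same intensities rescaled per array. The 190 therefore overstate the stability. Spike-in scaling moved the median of all genes to -0.27 for 4-OHT against vehicle (reported -0.12) and to 0.37 for vitamin E against 4-OHT (reported 0.16). It gave 1 gene 2-fold higher for vitamin E against 4-OHT, Cyp1b1 at 1.20. With the mean of probes 0 genes were 2-fold higher for lutein against vehicle, since Ahrr came to 0.93, and Ahr for 4-OHT against vehicle came to -0.34 because the mean includes its dim probe. For the same reason Ahr came to -0.39 for vitamin E against 4-OHT and to -0.12 for lutein against 4-OHT, against 0.30 and 0.40 for its bright probe on spike-in scaling. With no filter the count of 2-fold higher genes was 1 for vitamin E against 4-OHT, 1 for lutein against 4-OHT and 2 for lutein against vehicle, in each case by adding Cyp1a1 at background signal. A limit of 1.5-fold gave 1 gene lower for 4-OHT against vehicle, where 15.1% of all genes were lower. For vitamin E against 4-OHT it gave 1 higher and 1 lower (9.59% and 11.4% of all genes). For vitamin E against vehicle it gave 2 higher and 1 lower (4.81% and 4.89%). A limit of 4-fold left 0 genes higher for 4-OHT, vitamin E or lutein against vehicle (1.39%, 0.149% and 0.759% of all genes). Signal close to background limits Cyp1a1 and the dim probes of Ahr and Ahrr.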

Other observations

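Of 8 genes that metabolise or export drugs 3 were well above background on both the 4-OHT and the vehicle array. Of these 0 were past 2-fold higher and 0 lower, where 5.1% of all genes so detected were higher and 2.99% lower. Cyp3a11 entered through the 4-OHT array and is not counted. The P450 gene Cyp3a13 had levels of -2.56 with 4-OHT, -3.56 with vitamin E and -3.51 with lutein, against -3.50 in vehicle. The sulfotransferase gene Sult1a1 had levels of -2.39 with 4-OHT, -3.22 with vitamin E and -3.53 with lutein, against -3.34 in vehicle. Both supplemented arrays lay at about the vehicle level for these genes. Their supplement values were picked after they were seen, so this is not a separate result on the supplements. With 4-OHT, Cyp3a13 was 1.91-fold and Sult1a1 1.93-fold above vehicle, and Cyp3a11, not well above background in vehicle, at least 2.04-fold. All 3 levels lay below -2, where the spot SD of a log2 difference was 0.38 for 4-OHT against vehicle. Abcg2, an efflux transporter, had log2 differences from vehicle of 0.41 with 4-OHT, 0.34 with vitamin E and 0.54 with lutein. Abcb1a, Abcb1b and Sult1e1 were dim on every array, as was Cyp2d22 on all but the vitamin E array.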
